A study of Saccharomyces cerevisiae with 8 samples.

Results

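The genes of the large (60S) subunit ribosomal proteins of budding yeast were followed through RNA-seq libraries of Saccharomyces cerevisiae cells in which the RNA helicase Dbp2 could be moved out of the nucleus. They were chosen by name: protein-coding rows whose symbol is RPL with a number and an optional A or B, together with the stalk genes RPP0, RPP1A, RPP1B, RPP2A and RPP2B; RPL7A and RPL7B were left out. This gave 79 genes among the 10891 rows of the deposited table. They make 45 protein families, of which 11 have a single gene and 34 have an A copy and a B copy, so that 68 of the 79 genes have a paralog among them. An intron was annotated in 51 of the genes and none in 28.

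All cells were W303 MATalpha, GAL and psi+, with the markers can1-100, ura3, his3-11,15, ade2-1, trp1-1 and a mutant leu2 allele, and carried tor1-1, a deletion of FPR1 (fpr1::NAT) and the anchor gene RPL13A-2xFKBP12::TRP1. The Dbp2-FRB-GFP strain also carried DBP2-FRB-GFP-KanMX6, which its source label gives and its genotype label does not, and is called the tagged strain below; the parental strain lacked this fusion. Each strain was grown in YPD at 30 °C to an OD600 of 0.5 and was either given rapamycin at 1 µg/mL for 1 h or left untreated, with 2 biological replicates in each of the 4 groups. The groups were therefore tagged cells with rapamycin, parental cells with rapamycin, untreated tagged cells and untreated parental cells. In this anchor-away system rapamycin bridges FRB to FKBP12 on Rpl13A, and the export of new ribosomal subunits carries the FRB fusion to the cytoplasm; tor1-1 and the loss of FPR1 are there to blunt the ordinary response to the drug. One of the genes described here, RPL13A, is thus itself the anchor and is altered in all 8 libraries, so an effect of the anchor on these genes cannot be told apart from the baseline.

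The large subunit holds the peptidyl transferase centre, where amino acids are joined, and the tunnel through which the new chain leaves; its acidic stalk, built from P0, P1 and P2, recruits the translation factors. Yeast makes its proteins from genes that are among the most heavily transcribed by RNA polymerase II, and most of them exist as pairs left by an ancient genome duplication. The factors Rap1, Fhl1 and Ifh1 drive these genes under the control of the TOR kinase, which rapamycin blocks in cells with ordinary TOR1 and FPR1. Dbp2 is a DEAD-box helicase that acts on RNA during and after transcription.

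Reads of a pair can be told apart only where its copies differ, and coding identity ran from 69.21% for RPP1 to 99.39% for RPL1. In 10 of the 34 pairs the copies shared no coding word of 50 bases, and introns and untranslated regions were not compared. RPL41 encodes the shortest protein of the set, with 25 residues, and its copies are shown because they differ at 1 base (in capitals) and RPL41B stood highest in the tagged strain over the parental one. Both are on the minus strand of chromosome IV, and the sequences below and in the next paragraphs are those of the RefSeq R64 reference (strain S288C, not W303).
RPL41A (chrIV:130407-130484): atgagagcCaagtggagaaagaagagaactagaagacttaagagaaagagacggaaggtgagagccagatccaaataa
RPL41B (chrIV:221724-221801): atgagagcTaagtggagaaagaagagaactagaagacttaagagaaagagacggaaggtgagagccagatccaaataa
RPL8 encodes a protein that joins the subunit early in its assembly, and its copies are shown because their ratio moved most between the strains. RPL8A lies on chromosome VIII from 35255 to 36025 and RPL8B on chromosome XII from 47859 to 48629, both on the minus strand and without an intron. Their coding sequences were 95.07% identical, 7 of 256 residues differed, and 6.925% of their 50-base words were shared. The first 150 coding bases, with the differing bases in capitals, were as follows.
RPL8A: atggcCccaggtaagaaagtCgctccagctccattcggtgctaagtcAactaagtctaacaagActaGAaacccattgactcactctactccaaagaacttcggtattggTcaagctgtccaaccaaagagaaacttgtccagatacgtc
RPL8B: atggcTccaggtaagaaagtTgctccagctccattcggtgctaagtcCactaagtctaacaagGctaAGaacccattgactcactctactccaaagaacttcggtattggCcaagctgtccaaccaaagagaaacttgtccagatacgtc
RPL19 is shown because the effect of rapamycin on the ratio of its copies differed between the strains. The copies encode identical proteins, and their coding sequences were 94.04% identical. Both have an intron, of 506 nucleotides in RPL19A and 384 in RPL19B. The first 150 coding bases are given with the intron left out and the differing bases in capitals.
RPL19A (chrII:414186-415261, minus strand): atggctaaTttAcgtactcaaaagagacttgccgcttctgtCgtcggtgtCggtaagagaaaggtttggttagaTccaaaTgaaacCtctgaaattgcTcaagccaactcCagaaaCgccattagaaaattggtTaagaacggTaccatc
RPL19B (chrII:168423-169376, plus strand): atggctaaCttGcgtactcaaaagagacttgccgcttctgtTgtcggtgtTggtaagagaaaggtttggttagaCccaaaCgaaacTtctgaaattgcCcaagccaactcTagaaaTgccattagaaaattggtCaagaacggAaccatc

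Each library held 22523078 to 27500113 reads on yeast features and 747342 to 1267031 reads on spike-in RNAs, which were 2.93% to 4.44% of all. The deposited values are read densities per nucleotide multiplied by 1 factor per library that rests on the spike-ins, and every level below is in that unit. Alpha-specific genes summed to densities of 28.8 to 35.8 in the tagged libraries and 52.8 to 57.6 in the parental libraries, above the a-specific genes in each (0.355 to 0.634 and 0.174 to 0.254), as the labelled mating type has it. Among the alpha-specific genes, MF(ALPHA)2, a gene for the alpha mating pheromone, stood far lower in the tagged strain. It had 1.73 and 1.58 in tagged cells with rapamycin, against 28.0 and 24.9 in parental cells with rapamycin. The log2 fold change was -3.99 with rapamycin (adjusted p = 3.88e-15, limma) and -3.32 without it. With 1 strain of each kind, the tag and other differences between the strains cannot be told apart. FPR1, deleted in every strain, kept 74 to 122 reads. DBP2 itself had densities of 4.33 and 2.86 in tagged cells with rapamycin, against 2.29 and 2.59 in parental cells with rapamycin, and of 3.05 and 3.03 in untreated tagged cells, against 2.42 and 2.61 in untreated parental cells (log2 fold change 0.53 with rapamycin, adjusted p = 0.00625, and 0.27 without it, adjusted p = 0.168, limma). DBP2 RNA does not report where the protein is, and no deposited value does. Within groups the 79 genes did not sit at the same level in both replicates: the median log2 difference of replicate 1 from replicate 2 was 0.26 in tagged cells with rapamycin, -0.18 in parental cells with rapamycin, 0.07 in untreated tagged cells and -0.27 in untreated parental cells.

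The 79 genes took 8.77% to 10.4% of the reads on protein-coding features, and their median density of 18.3 stood against 0.435 for protein-coding features as a whole. They had between 406 and 128116 reads in a library, and all 79 passed the filter on low values. Mean density was 136 times higher for the most abundant gene than for the least abundant. The highest were RPP1A, RPP0 and RPP2B, 3 genes of the stalk. The lowest were RPL18B, RPL22B and RPL15B, all of them B copies. RPL15B, whose protein sits deep in the subunit, had densities of 0.957 and 0.838 in tagged cells with rapamycin, 0.589 and 0.689 in parental cells with rapamycin, 0.676 and 0.632 in untreated tagged cells, and 0.534 and 0.704 in untreated parental cells. Once copies were added, the families were closer together. The summed density of a family had a lowest, median and highest value of 19.5, 42.2 and 156 in tagged cells with rapamycin, of 12.6, 29.3 and 112 in parental cells with rapamycin, of 16.7, 36.0 and 141 in untreated tagged cells, and of 13.3, 28.6 and 107 in untreated parental cells. Levels here are per nucleotide of the deposited feature, which was longer than the gene from start to stop codon in 78 of the 79 genes. The excess was largest for RPL8A, at 688 nucleotides, beside a median of 196.

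The first comparison asked how tagged cells with rapamycin differed from parental cells with rapamycin. On the spike-in scale 58 of the 79 genes were higher and 2 were lower in the tagged strain (limma, adjusted p under 0.05 over 9719 features, n = 2 each), and the median over the 79 was 0.56 (log2 fold change). These counts were 73.4% and 2.53% of the genes, beside 70.3% and 2.13% of all features tested, so the share of genes called was near that of the transcriptome. Over protein-coding features 65.9% were higher and 2.45% were lower, with a median of 0.49. The direction of most genes depended on that scale. When libraries were scaled to protein-coding features 28 genes were higher and 26 lower (median 0.06), and under quantile normalization 30 were higher and 21 lower (median 0.07); the median of all features was 0.59 on the spike-in scale, 0.13 scaled to protein-coding features and -0.02 under quantile normalization. Of 9719 features, 2973 were higher and 1745 lower when scaled to protein-coding features. Under quantile normalization 1965 of them were higher and 2240 lower. The sources used here do not give the step at which spike-ins were added.

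**Figure D1:**
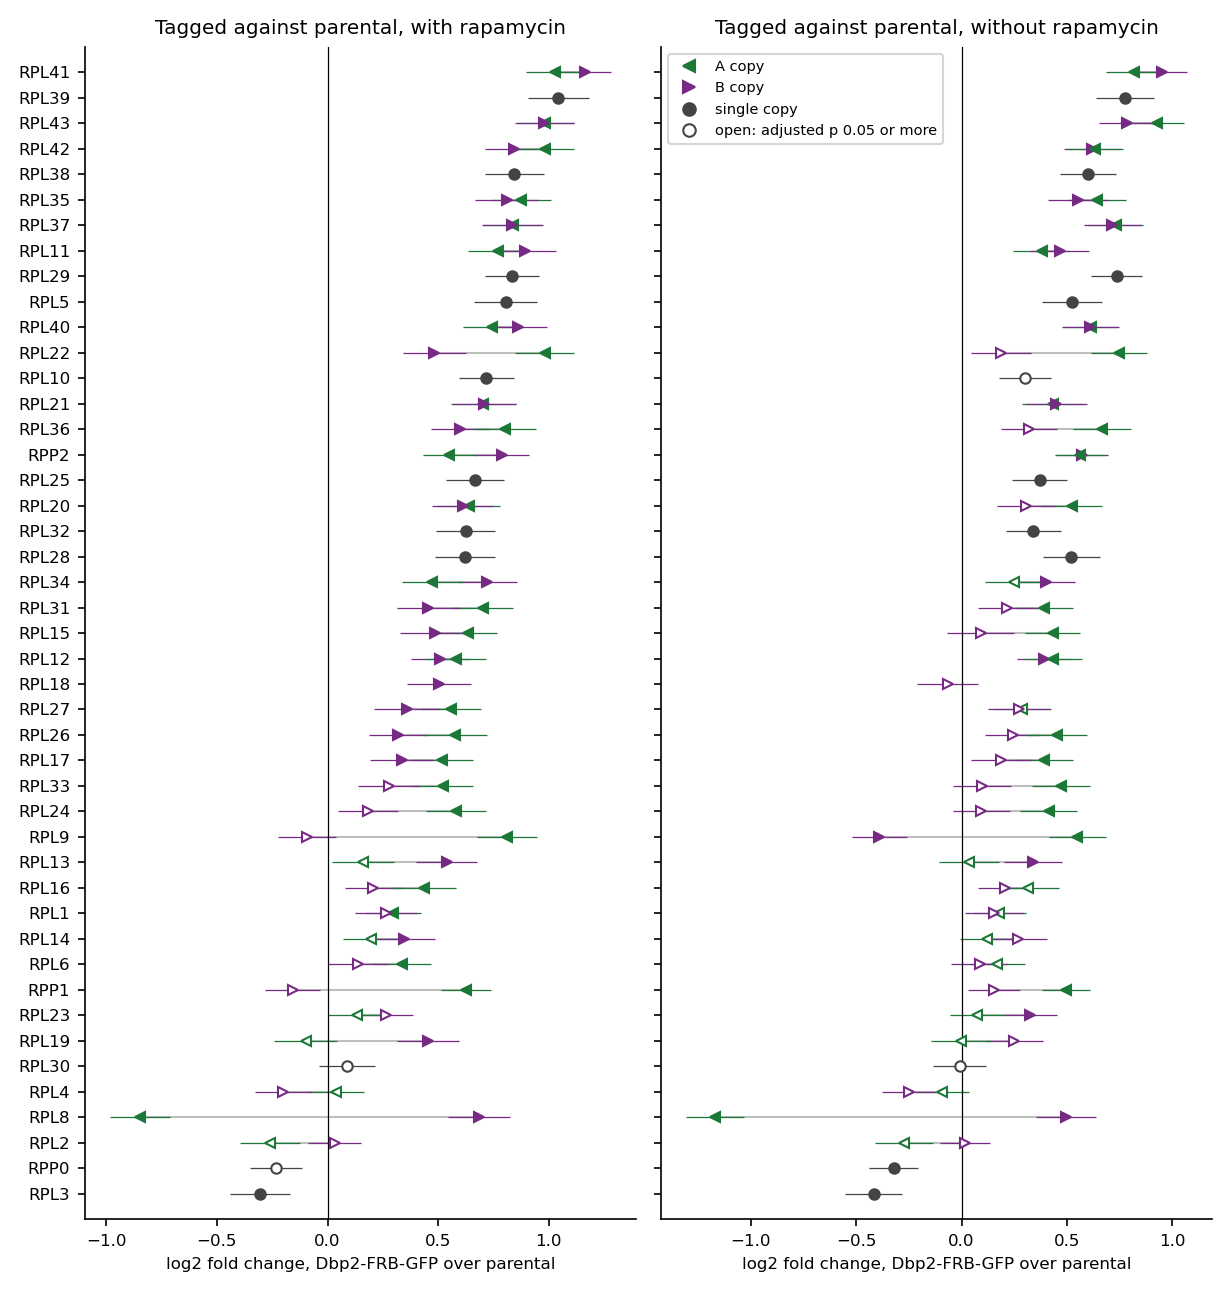
Log2 fold change (± SE) of the genes shown, by family, tagged over parental strain, on the spike-in scale, with rapamycin on the left and without it on the right; left-pointing triangles are A copies, right-pointing triangles are B copies, circles are single genes, and open symbols did not pass adjusted p under 0.05 (limma, n = 2 libraries in each group). RPL41B stands highest at 1.16 and RPL8A lowest at -0.85 with rapamycin.

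The 8 genes that were highest in the tagged strain also passed the test as higher under both other scalings. RPL41B had densities of 64.9 and 59.0 in tagged cells with rapamycin, against 26.7 and 28.6 in parental cells with rapamycin (log2 fold change 1.16 ± 0.12 SE, adjusted p = 8.29e-08, limma). RPL41A had 60.01 and 48.3 in tagged cells, against 25.0 and 27.8 in parental cells (1.03 ± 0.13, adjusted p = 1.65e-06). RPL41 encodes a very short basic peptide at the interface of the subunits. RPL39, whose protein lines the exit tunnel, had 30.9 and 24.9 in tagged cells, against 12.4 and 14.5 in parental cells (1.04 ± 0.14, adjusted p = 2.56e-06). RPL43A had 45.0 and 39.4 in tagged cells and 20.2 and 22.4 in parental cells, and RPL43B had 27.9 and 24.0 in tagged cells and 12.3 and 13.9 in parental cells. Both copies of this zinc-binding protein were thus higher, by 0.99 and 0.98 on the log2 scale. The other genes of these 8 were RPL42A, RPL22A and RPL11B, higher by 0.98, 0.98 and 0.89. Rpl42 is another zinc-binding protein, and Rpl11 forms a complex with Rpl5 and the 5S rRNA before it enters the subunit. In none of these 8 genes, picked as the highest, did the tagged and parental libraries overlap. The share of all features without overlap was not counted.

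RPL8A and RPL3 were the genes called lower in tagged cells with rapamycin. RPL8A had densities of 3.29 and 2.97 in tagged cells, against 5.29 and 5.995 in parental cells (-0.85 ± 0.14, adjusted p = 2.37e-05, limma). It was called lower in every alternative run, from -0.94 to -0.76 when libraries were left out in turn. RPL3, whose protein reaches the peptidyl transferase centre, had 47.1 and 37.4 in tagged cells and 48.6 and 55.3 in parental cells (-0.31 ± 0.14, adjusted p = 0.0472). It no longer passed when tagged rapamycin replicate 2 was left out (adjusted p = 0.394) or when parental rapamycin replicate 2 was (adjusted p = 0.265). RPP0, the base of the stalk, had 89.5 and 84.0 in tagged cells and 100.05 and 104 in parental cells, and did not pass the test (-0.23, adjusted p = 0.0785).

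The stalk genes did not move as 1 group. RPP1A had 125 and 116 in tagged cells with rapamycin, against 76.4 and 80.0 in parental cells (0.62, adjusted p = 8.49e-05, limma), a call that neither other scaling kept (adjusted p = 0.179 and 0.184). RPP1B had 31.1 and 29.7 in tagged cells and 33.3 and 34.5 in parental cells (-0.16, adjusted p = 0.25). RPP2A and RPP2B, which encode the partners of P1 in the stalk, were higher by 0.55 and 0.79. Of the 5 stalk genes, 3 were higher and 0 lower on the spike-in scale, 1 higher and 2 lower when scaled to protein-coding features, and 2 higher and 2 lower under quantile normalization. RPP1A faces the anchor gene RPL13A on chromosome IV, ending at 309802 on the minus strand where RPL13A ends at 309388 on the plus strand.

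Among the genes of other roles, named for what they do, RPL5 (0.81) and RPL10 (0.72) were higher. Rpl5 carries the 5S rRNA with Rpl11, and Rpl10 joins the subunit late in the cytoplasm. RPL29 (0.83), RPL38 (0.84) and RPL25 (0.67) were higher too; Rpl25 sits by the mouth of the exit tunnel. RPL30, whose protein represses splicing of its own transcript, had 42.9 and 36.0 in tagged cells with rapamycin and 35.4 and 38.7 in parental cells, which overlap (0.09, adjusted p = 0.539). RPL13A, the anchor, had 2.97 and 2.60 in tagged cells and 2.36 and 2.62 in parental cells (0.16 ± 0.14, adjusted p = 0.305), and its sign turned to -0.33 when scaled to protein-coding features and -0.26 under quantile normalization. RPL13B had 25.0 and 20.6 in tagged cells and 14.7 and 16.6 in parental cells (0.54, adjusted p = 0.0018), a call that neither other scaling kept. The log2 fold changes of all 79 genes ran from -0.85 to 1.16.

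The second comparison set untreated tagged cells against untreated parental cells, and so asked which differences did not need the drug. On the spike-in scale 42 genes were higher and 4 were lower in the tagged strain, the median log2 fold change being 0.34. These were 53.2% and 5.06% of the genes, beside 43.5% and 2.75% of all features and 32.0% and 3.33% of protein-coding features, whose median was 0.25. Scaled to protein-coding features the split was 34 higher and 17 lower, beside 2803 higher and 1383 lower of 9719 features. Under quantile normalization it was 21 higher and 21 lower, beside 1621 higher and 1882 lower of the 9719. The number called, 46 in all, was 24 without parental untreated replicate 1 and 25 without tagged untreated replicate 1. Of the 79 genes, 41 were higher in both strain comparisons, 2 were lower in both, and 16 were called in neither. Over all features, of which 70.3% were higher with rapamycin and 43.5% without it, the same counts were not made.

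RPL41B again stood highest without the drug. It had 59.4 and 60.1 in untreated tagged cells, against 30.0 and 31.7 in untreated parental cells (0.95 ± 0.12, adjusted p = 2.28e-06, limma). RPL41A was higher by 0.82, RPL43A by 0.93, RPL43B by 0.79, RPL39 by 0.78 and RPL22A by 0.75. RPL29, which encodes a small basic protein, had 28.5 and 27.9 in untreated tagged cells and 15.9 and 18.1 in untreated parental cells (0.74, adjusted p = 7.3e-05). The next was RPL37A (0.73), which encodes a further zinc-binding protein. The tagged and parental libraries of these genes, picked as the highest, did not overlap, and the share of all features was not counted. RPL13A differed by 0.035 (adjusted p = 0.849). RPL13B was higher by 0.34 (adjusted p = 0.0475), a call lost without any 1 of 5 libraries (adjusted p = 0.0533 to 0.4003) and under both other scalings.

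The genes called lower in untreated tagged cells were RPL8A, RPL3, RPL9B and RPP0. RPL8A had 2.43 and 2.36 in tagged cells, against 4.95 and 5.89 in parental cells (-1.17 ± 0.14, adjusted p = 1.34e-06, limma), and -1.29 to -1.05 when libraries were left out in turn. RPL9B had 3.73 and 3.64 in tagged cells and 4.54 and 5.15 in parental cells (-0.39, adjusted p = 0.0195). RPL3 had 40.1 and 35.4 in tagged cells and 46.2 and 54.7 in parental cells (-0.42, adjusted p = 0.0162). Of these 4 calls RPL8A alone was kept whichever library was left out. RPL9B was not called without parental untreated replicate 2 (adjusted p = 0.0957), tagged untreated replicate 1 (0.106) or tagged untreated replicate 2 (0.136). RPL3 was not called without parental untreated replicate 2 (adjusted p = 0.121) or tagged untreated replicate 2 (0.137). RPP0 had 81.1 and 72.5 in tagged cells and 88.9 and 103 in parental cells (-0.32, adjusted p = 0.0301), and was not called without parental untreated replicate 2 (adjusted p = 0.181), tagged untreated replicate 1 (0.0535) or tagged untreated replicate 2 (0.253).

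The strain difference was ordered by the length of the gene. With rapamycin, the 33 genes with coding sequences under 400 nucleotides had a median log2 fold change of 0.79 (30 higher), the 32 of 400 to 600 nucleotides had 0.48 (22 higher), and the 14 above 600 nucleotides had 0.15 (6 higher, 2 lower). Without rapamycin the medians were 0.57, 0.30 and 0.05, in the same order, with 25 higher, then 14 higher and 1 lower, then 3 higher and 3 lower. Spearman's rho between coding length and log2 fold change was -0.57 over the 79 genes with rapamycin and -0.64 without it, as a description of genes that share the same libraries. The pattern was not particular to these genes: rho was -0.37 and -0.34 over 5673 protein-coding features, and -0.49 and -0.62 over the 56 genes of the small subunit. Scaled to protein-coding features, the short genes with rapamycin were 20 higher and 4 lower (median 0.29), and the genes above 600 nucleotides were 2 higher and 9 lower (median -0.34). Introns did not order the genes in the same way, since with rapamycin 38 of the 51 genes with an intron and 20 of the 28 without were higher, with medians of 0.52 and 0.60. The part that length takes in the strain difference of a single gene was not tested.

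**Figure D2:**
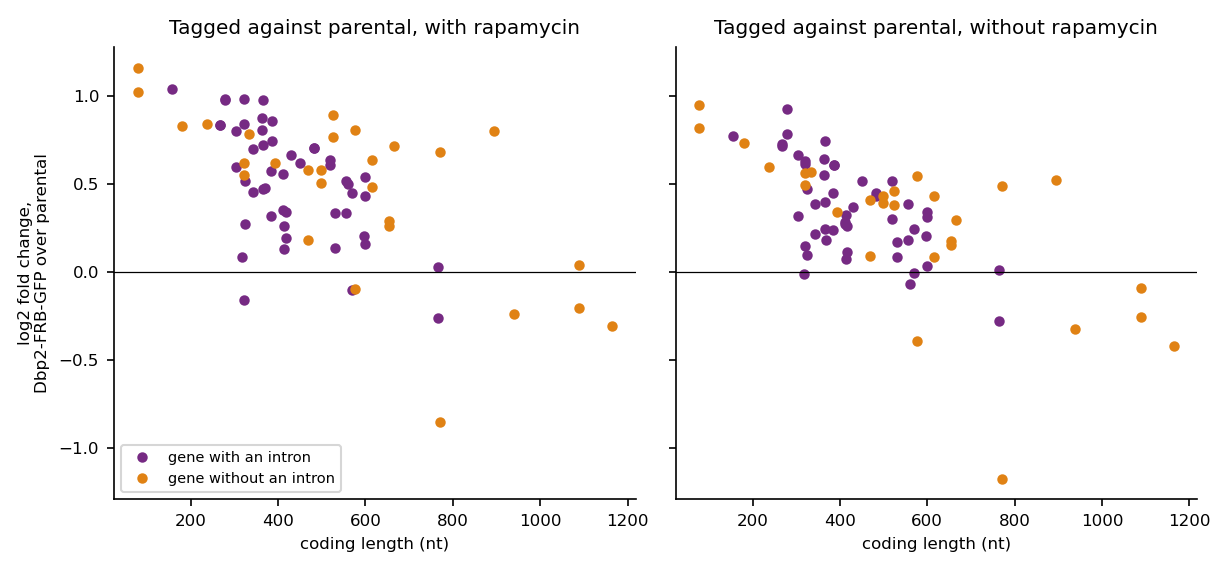
Log2 fold change on the spike-in scale, tagged over parental strain, against coding length in nucleotides, with rapamycin on the left and without on the right; each point is a gene, coloured by whether it has an intron. Short genes stand higher than long ones in both panels, with Spearman's rho over all 79 genes of -0.57 and -0.64, and RPL8A lies lowest in each.

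Pairs of copies gave a measure that did not depend on how libraries were scaled, because the ratio of A to B within a library cancels the library's factor. The mean share of the A copy in a pair's density ran from 12.0% for RPL13 to 98.6% for RPL15. The A copy held over 50% in all 8 libraries in 20 pairs and under 50% in 12, while RPL20 and RPL41 lay on both sides. These shares are of densities per feature, so differences in the length of untranslated regions enter them.

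**Figure D3:**
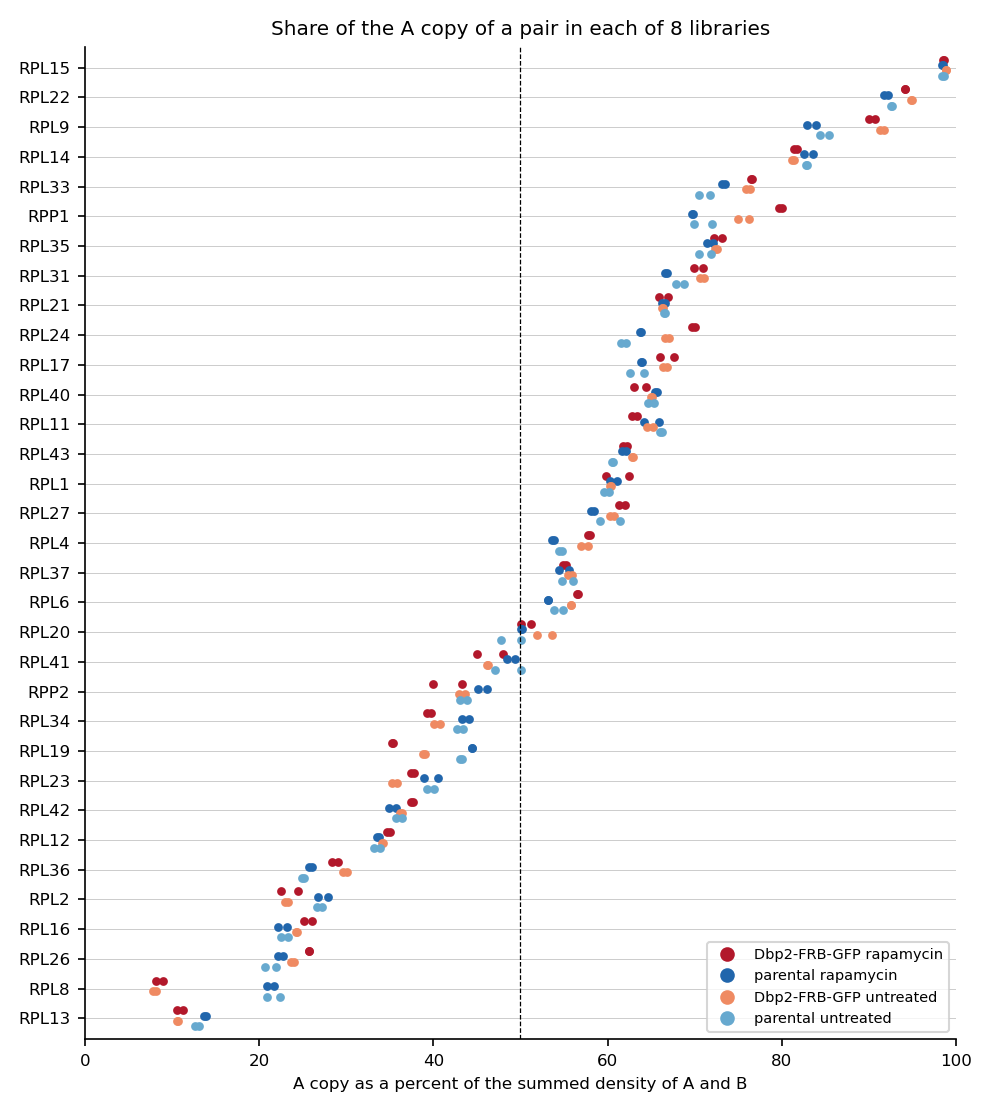
Share of the A copy in the summed density of each pair shown, in percent, with 1 point for each of the 8 libraries coloured by group; the dashed line marks 50%. RPL8, RPL9, RPP1 and RPL19 show the tagged libraries apart from the parental ones, as do RPL13, RPL22, RPL24, RPL36 and others. RPL21 and RPL37 are among the pairs whose libraries overlap.

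The ratio of the copies differed between tagged and parental cells with rapamycin in 26 of 34 pairs (limma over all 61 A and B pairs of the table, adjusted p under 0.05). This was 76.5% of the pairs, beside 75.4% of the 61, which are the genes of the table named as an A and a B copy and include these 34. The shift favoured the A copy in 15 pairs and the B copy in 11, and the more abundant copy gained in 18. Most shifts were small: the median absolute log2 change over the 34 pairs was 0.20. Without rapamycin the ratio differed in 22 pairs (64.7%, beside 68.9% of the 61), 15 toward A and 7 toward B. A shift was called in both comparisons in 20 pairs, in the same direction in each of the 20, and in neither in 6. The same counts over the 61 pairs were not made. The strain comparisons with and without rapamycin share no library. They do share both strains and a residual variance fitted over all 8 libraries, so a fixed difference between the strains would enter each.

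RPL8 had the largest shift. RPL8A made 8.201% and 8.92% of the RPL8 density in tagged cells with rapamycin, against 21.7% and 20.9% in parental cells with rapamycin (log2 change of A over B -1.53 ± 0.06, adjusted p = 1.75e-06, limma). It made 7.85% and 8.14% in untreated tagged cells, against 22.4% and 20.9% in untreated parental cells (-1.66 ± 0.06, adjusted p = 9.78e-07). RPL8B moved the other way from RPL8A, with 36.8 and 30.4 in tagged cells with rapamycin and 19.1 and 22.6 in parental cells (0.68, adjusted p = 0.000307), though it no longer passed the test under either other scaling. The summed RPL8 density was 40.1 and 33.3 in tagged cells with rapamycin, against 24.4 and 28.6 in parental cells with rapamycin. RPL8B therefore made most of the RPL8 density in every library, and a larger share of it in the tagged strain. The deposited features differ in length, with 1459 nucleotides for RPL8A and 993 for RPL8B, around genes of 771 nucleotides each. What reads from outside the gene add to the RPL8A values was not tested.

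RPL9 moved toward its A copy. Rpl9 lies near the stalk, and its copies differ at 4 of 191 residues. RPL9A made 90.8% and 90.0% of the density in tagged cells with rapamycin, against 82.9% and 83.9% in parental cells with rapamycin (0.90 ± 0.06, adjusted p = 1.27e-05, limma). The shares were 91.7% and 91.3% in untreated tagged cells, against 84.4% and 85.4% in untreated parental cells (0.94 ± 0.06, adjusted p = 2.46e-05). In density, RPL9A had 49.8 and 41.1 in tagged cells with rapamycin and 24.1 and 27.5 in parental cells, while RPL9B had 5.07 and 4.57 in tagged cells and 4.98 and 5.28 in parental cells, which overlap.

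RPP1, the P1 protein of the stalk, is the pair whose copies are least alike, with 59.63% of residues identical. RPP1A made 80.1% and 79.7% of the density in tagged cells with rapamycin, against 69.7% and 69.9% in parental cells with rapamycin (0.78 ± 0.05, adjusted p = 1.27e-05, limma). It made 76.2% and 75.0% in untreated tagged cells, against 72.0% and 69.9% in untreated parental cells (0.34, adjusted p = 0.00101). RPL22 also moved toward A, with and without the drug: RPL22A made 94.2% in both tagged libraries with rapamycin, against 91.7% and 92.2% in parental cells with rapamycin, and 94.8% and 94.9% in untreated tagged cells, against 92.5% and 92.6% in untreated parental cells. Rpl22 is known to hold back splicing of the RPL22B transcript.

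RPL13, which includes the anchor, moved toward its B copy. RPL13A made 10.6% and 11.2% of the RPL13 density in tagged cells with rapamycin, against 13.9% and 13.7% in parental cells with rapamycin (-0.38 ± 0.04, adjusted p = 8.39e-05, limma). It made 10.7% and 10.6% in untreated tagged cells, against 13.0% and 12.6% in untreated parental cells (-0.31, adjusted p = 0.000423). The anchor was the minor copy of its pair in every library. RPL24, whose protein bridges to the small subunit and joins late, moved toward A, with 70.0% and 69.7% in tagged cells with rapamycin and 63.7% and 63.8% in parental cells with rapamycin (0.40 ± 0.03). Without the drug RPL36 and RPL33 moved toward A, by 0.35 (adjusted p = 6.44e-05) and 0.37 (adjusted p = 9.49e-05, limma). With rapamycin they moved toward A too, by 0.20 and 0.24 (adjusted p = 0.000743 for each, limma).

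**Figure D4:**
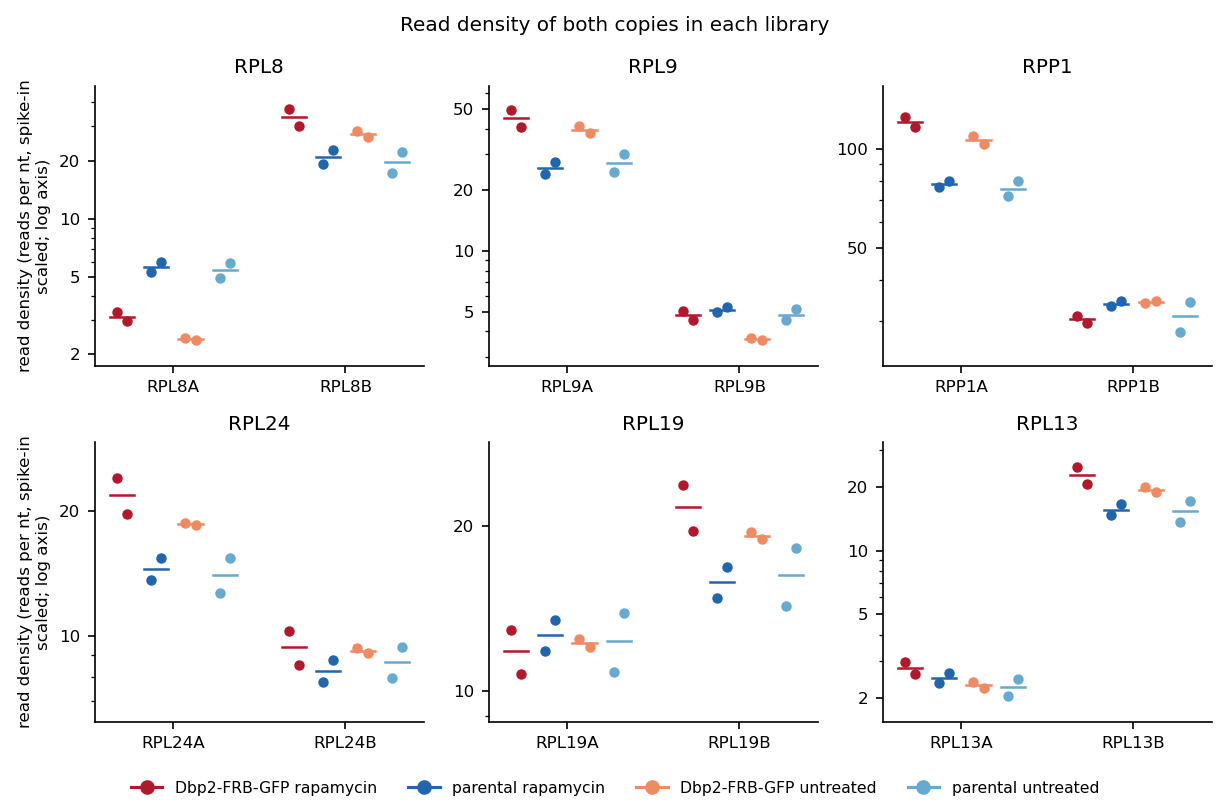
Read density (log axis) of both copies of 6 pairs in each library, by group; dots are libraries and lines are group means (n = 2). On the spike-in scale RPL8A is lower in both tagged groups than in both parental groups while RPL8B is higher, and RPL19B is higher in tagged cells with rapamycin than in parental cells with rapamycin.

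Pairs with no call were not thereby shown to be equal. With rapamycin the 95% interval of the log2 change ran from -0.07 to 0.07 for RPL21, from -0.06 to 0.07 for RPL43, from -0.09 to 0.09 for RPL37 and from -0.30 to 0.03 for RPL41. RPL41 and RPL43 are the pairs in which both copies were among the highest genes of the tagged strain. Without rapamycin the RPL43 copies did differ, by 0.14 toward A (adjusted p = 0.0029, limma). Sequence identity bears on what a ratio can show. In 5 pairs, RPL1, RPL4, RPL11, RPL35 and RPL41, the copies shared over 50% of their coding words of 50 bases. With rapamycin 2 of these 5 were called. Of the 12 pairs that shared 10% to 50% of these words 11 were called, and of the 17 that shared less, 13. The deposited features also hold bases outside the coding sequence, which were not compared. The sources used here do not say how reads that fit both copies were counted.

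The third comparison asked what rapamycin did within the tagged strain, where it should bring Dbp2 to the cytoplasm. On the spike-in scale 2 of the 79 genes were higher with the drug and 0 were lower, the median log2 fold change being 0.21 (limma; 13 at an unadjusted p under 0.05, and 9 called by voom on recovered reads). This was 2.53% of the genes, beside 13.3% of all features higher and 0.144% lower, and 16.4% and 0.0705% of protein-coding features, whose median was 0.34. By voom, 2989 of 9719 features were higher and 18 lower. RPL18B had 2.78 and 2.40 in tagged cells with rapamycin, against 1.65 and 1.53 in untreated tagged cells (0.70 ± 0.14, adjusted p = 0.0112). RPL5 had 85.0 and 65.6 with rapamycin, against 55.9 and 52.2 in untreated tagged cells (0.47 ± 0.14, adjusted p = 0.0417). The treated and untreated libraries of both called genes were apart, and the share of all features with libraries apart was not counted. RPL10, the next by p, had 83.2 and 72.6 with rapamycin, against 62.7 and 57.3 in untreated tagged cells, and did not pass (0.37, adjusted p = 0.0506), nor did RPL13A (0.27, adjusted p = 0.135) or RPL13B (0.22, adjusted p = 0.188). Both calls, of RPL18B and RPL5, depended on single libraries: RPL18B was not called without tagged untreated replicate 2 (adjusted p = 0.0972), and RPL5 was not called without tagged untreated replicate 1 (0.0741), tagged untreated replicate 2 (0.246) or tagged rapamycin replicate 1 (0.309). The number of genes called also moved when single libraries were left out, and the features as a whole moved too. Their median log2 fold change was 0.32 with all libraries. It was 0.43 without tagged rapamycin replicate 2 and 0.23 without tagged rapamycin replicate 1. Scaled to protein-coding features the count was 1 gene higher and 3 lower, beside 5 higher and 13 lower of 9719 features.

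The fourth comparison gave the same drug to the parental strain, which has the anchor and no FRB fusion. None of the 79 genes was called by limma (0 higher and 0 lower, 0 at an unadjusted p under 0.05, and 0 by voom), the median log2 fold change being 0.04; of all features 0.0206% were higher and 0.0103% lower, and of protein-coding features 0.0176% were higher. RPL41B (-0.16, adjusted p = 0.92), RPL5 and RPL1A (0.16, adjusted p = 0.92) had the lowest p of the genes. RPL5 had 39.7 and 45.9 in parental cells with rapamycin and 33.0 and 42.8 in untreated parental cells, which overlap (0.18, adjusted p = 0.92). RPL13A and RPL13B differed by 0.14 and 0.024. The difference between the drug's effects in the strains was then tested as an interaction. No gene was called (limma, 0 higher and 0 lower, 3 at an unadjusted p under 0.05, and 0 by voom), beside 0.0309% of all features higher and 0.0103% lower, and 0.0176% of protein-coding features in either direction. RPL18B was the nearest, at 0.57 (adjusted p = 0.436), before RPL10 (0.42, adjusted p = 0.497) and RPL11B (0.43, adjusted p = 0.509); RPL13A and RPL13B had 0.12 and 0.20.

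Ratios of copies had smaller standard errors than levels of single genes, and some of them changed with the drug. In the tagged strain the ratio changed with rapamycin in 7 of 34 pairs (20.6%, beside 21.3% of the 61 pairs). In the parental strain it changed in 0 (limma; 10 at an unadjusted p under 0.05), beside 0% of the 61. The interaction called 3 pairs, RPL19 and RPP1 among them, which is 8.82% beside 9.84% of the 61 pairs. The number called in the tagged strain was 4 without tagged untreated replicate 1 or replicate 2, and without parental untreated replicate 2 it was 2 in the parental strain and 5 in the interaction.

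RPL19A made 35.3% and 35.4% of the RPL19 density in tagged cells with rapamycin, 44.5% in both parental libraries with rapamycin, 39.0% and 38.8% in untreated tagged cells, and 43.0% and 43.2% in untreated parental cells. The ratio changed with rapamycin by -0.22 ± 0.03 in the tagged strain (adjusted p = 0.00187, limma) and by 0.08 ± 0.03 in the parental strain (adjusted p = 0.13). The interaction was -0.30 (adjusted p = 0.00242). RPL19 already differed between untreated strains (-0.25, adjusted p = 0.000133), and the drug widened the difference. RPP1 behaved in the same way toward its A copy: the shares given above correspond to a change with rapamycin of 0.36 ± 0.05 in the tagged strain (adjusted p = 0.00343) and an interaction of 0.44 (adjusted p = 0.008). Both interactions were called whichever library was left out, with adjusted p of 0.0064 to 0.016 for RPL19 and 0.0064 to 0.0375 for RPP1.

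Other pairs called in the tagged strain with rapamycin included RPL24 (0.20), RPL26 (0.15), RPL22 (-0.18) and RPL15 (-0.25). The calls of RPL22 (adjusted p = 0.0527 to 0.129, limma) and RPL26 (0.10027 to 0.167) were lost without any 1 of the 4 tagged libraries. That of RPL15 was lost without tagged untreated replicate 1 (adjusted p = 0.0861), tagged untreated replicate 2 (0.0739) or tagged rapamycin replicate 2 (0.0633). Rpl24 and Rpl26 are proteins of the subunit's surface.

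**Figure D5:**
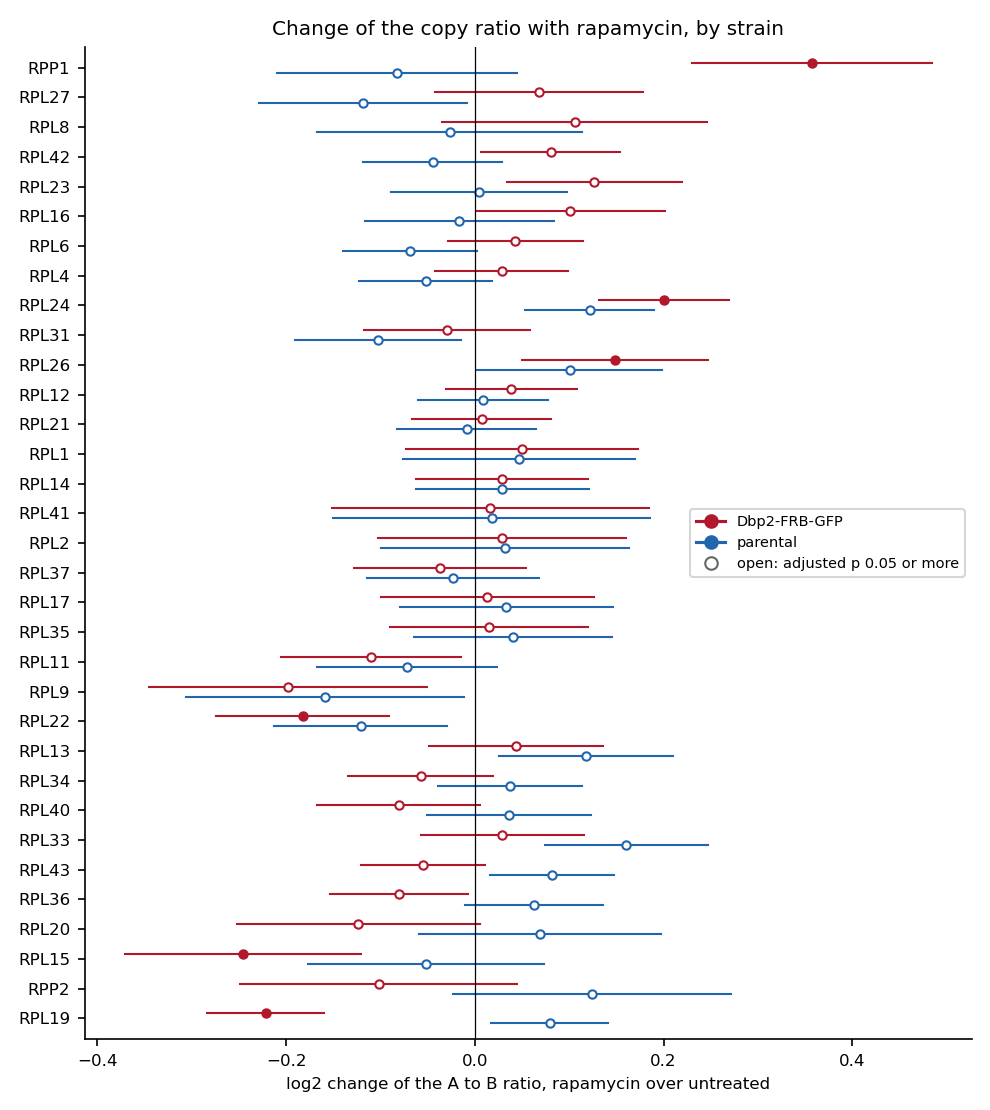
Log2 change of the A to B ratio with rapamycin (with rapamycin over untreated) and its 95% interval for each pair shown, tagged strain in red and parental strain in blue; open symbols did not pass adjusted p under 0.05. RPL19 is below 0 and RPP1 is above 0 in the tagged strain, and no pair passed in the parental strain.

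The introns of RPL18B and RPL19 begin with the most frequent 5′ splice site. They are shown, beside those of RPL22 and RPL30 whose proteins act on splicing, because 50 of the 51 introns hold the branch point TACTAAC and RPL19A is the exception by these letters. The first 20 bases of each intron follow, with the 5′ splice site in capitals.
RPL18B (chrXIV:64431-64450, minus strand): GTATGTattgaaatctccct
RPL19A (chrII:415240-415259, minus strand): GTATGTgatgcagtgaataa
RPL19B (chrII:168425-168444, plus strand): GTATGTttaacagtgatact
RPL22A (chrXII:263206-263225, plus strand): GTATGAtactttaaaaggaa
RPL22B (chrVI:64901-64920, minus strand): GTACGTtaattttcgttcct
RPL30 (chrVII:439094-439113, plus strand): GTCAGTataacatgatttta
The 5′ splice site read GTATGT in 40 of the 51 introns and GTACGT in 5, among them RPL22B. RPL30 alone read GTCAGT. The deposited features do not separate spliced from unspliced reads, so splicing itself was not measured here.

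Upstream of the genes, the letters CCCNNACA, the core of the site bound by Rap1, were found on either strand within 500 bases before the start codon in 39 of the 79 genes (49.4%), beside 12.8% of all 5897 protein-coding genes and 42.9% of the small-subunit genes. Genes with and without the letters had like median log2 fold changes with rapamycin, 0.55 and 0.57. The upstream windows of RPL8A and RPL8B are shown because theirs was the ratio that moved most: RPL8A holds the letters 238 bases before its start codon (in capitals), and the window of RPL8B at the same distance does not. Both windows are 200 bases long and begin 420 bases before the start codon, on the minus strand.
RPL8A (chrVIII:36246-36445): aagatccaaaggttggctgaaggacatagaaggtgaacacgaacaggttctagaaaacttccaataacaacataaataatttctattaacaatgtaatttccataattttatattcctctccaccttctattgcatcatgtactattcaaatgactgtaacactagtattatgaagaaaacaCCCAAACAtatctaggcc
RPL8B (chrXII:48850-49049): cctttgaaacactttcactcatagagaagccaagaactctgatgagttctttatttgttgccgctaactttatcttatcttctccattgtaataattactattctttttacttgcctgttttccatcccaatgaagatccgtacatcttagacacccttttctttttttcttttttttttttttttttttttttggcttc
A match is a description of the letters, and a window without them says nothing of Rap1 there.

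Other genes of ribosome synthesis, and the mitochondrial ribosome, were counted in the same way on the spike-in scale, where 65.9% of protein-coding features were higher in the tagged strain with rapamycin and 32.0% without it. With rapamycin 38 of 56 small-subunit ribosomal protein genes were higher in the tagged strain and 0 were lower (median 0.46), and 22 of 56 were higher without it (0.30); scaled to protein-coding features the count with rapamycin was 15 higher and 20 lower. Of 34 genes of the mitochondrial large subunit, which are driven by other factors, 30 were higher with rapamycin (median 0.55; 13 higher and 4 lower when scaled to protein-coding features) and 12 without it (0.30). Among 59 factors that assemble the 60S subunit, 53 were higher with rapamycin (19 higher and 2 lower when scaled to protein-coding features) and 26 without it. The small-subunit count with rapamycin and the mitochondrial count without it were near these background shares.

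The calls of regulators and escorts of the large-subunit proteins depended on the scale (limma, adjusted p under 0.05). Of 10 regulators, 5 were higher and 0 lower with rapamycin on the spike-in scale, a share below the 65.9% of protein-coding features, while 0 were higher and 4 lower when scaled to protein-coding features, and 1 was higher and 4 lower under quantile normalization. On the spike-in scale CRF1, a TOR-dependent corepressor, was higher by 0.71 in tagged cells with rapamycin, and DOT6 and TOD6, repressors of ribosome biogenesis genes, by 0.64 and 0.60. HMO1, which binds ribosomal protein promoters, was higher by 0.60 and the kinase gene SCH9 by 0.45, while FHL1, IFH1, RAP1, SFP1 and STB3 were not called. Of 6 dedicated chaperones and importers tested, 4 were higher and 0 lower with rapamycin on the spike-in scale. This share was near the 65.9% of protein-coding features. Under each other scaling 2 were higher and 2 lower. KAP121 was also listed and was not matched under that name. BCP1, which escorts Rpl23, was higher by 1.205, SYO1, which imports Rpl5 with Rpl11, by 0.87, ACL4, the chaperone of Rpl4, by 0.68 and RRB1, the chaperone of Rpl3, by 0.45. SQT1, the chaperone of Rpl10, and the importin gene KAP123 were not called. Without rapamycin BCP1 and SYO1 were the chaperone genes called, beside 32.0% of protein-coding features called higher.

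Outside the 79 genes, the features whose log2 density followed the genes' mean most closely over the 8 libraries were RPS6B, a gene of the small subunit, with Pearson's r of 0.999, the unstable transcript XUT0877 with 0.998 and DPH1, a gene of diphthamide synthesis, with 0.998. RPS6B had densities of 14.4 and 12.3 in tagged cells with rapamycin, 8.98 and 10.2 in parental cells with rapamycin, 11.8 and 11.3 in untreated tagged cells, and 8.44 and 10.3 in untreated parental cells. XUT0877 had densities of only 0.00517 to 0.0284 over the 8 libraries, near the filter on low values. All features of a library share its spike-in factor, which enters these values of r.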

How the data were processed

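Total RNA from 8 yeast cultures was sequenced as stranded libraries made from 125 ng of rRNA-depleted RNA, per the labels. The submitters' processing notes name Trim Galore, HISAT2 2.2.0, featureCounts 2.0.0, DESeq2 and genome build R64; the role of DESeq2, the strand setting, the handling of reads that fit several genes and the stage of spike-in addition are not stated there or in the labels. The table deposited by the authors holds signal values: read coverage density per nucleotide of a feature, scaled by 1 spike-in factor per library. Dividing out that factor and the shortest length of up to 40000 nt gave whole reads for 10804 features (tolerance 0.01; 100% of positive values, partly by construction).

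Tests used limma 3.58.1 in R 4.3.3 on log2(density + 0.00734664), over 9719 features with a mean density of at least 0.0127231 (10th percentile); the added constant is the 5th percentile of yeast values above 0. All 8 libraries entered each fit (4 residual degrees of freedom, 17.2 prior), with a trend on the mean, two-sided tests and Benjamini-Hochberg adjustment; a call is an adjusted p under 0.05. Log2 fold changes of low genes are understated by the pseudocount. Copy ratios were fitted without a trend over the 61 A and B pairs (3.09 prior degrees of freedom). The fits were tested on simulated data. Alternatives were another pseudocount, no filter, 2 other scalings, no trend, only the groups compared, a replicate block, each library left out and, chosen after seeing the data, voom on recovered reads. Replicate numbers do not mark a pairing in the labels.

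The 79 genes, the gene lists and the tests were chosen with earlier results of these data known. Results of 1 gene and of its pair enter the counts and are not reported here singly. In each comparison the text names RPL13A and RPL13B, the called genes among the 8 highest and 8 lowest, 3 genes by lowest p if under 3 passed, up to 8 called pairs, the 3 most and 3 least abundant genes and the 3 features most like the mean. RPL5, RPL10, RPL25, RPL29, RPL30, RPL38, RPP0, RPP2A and RPP2B were added for their roles after their values were seen. Sequence work used Python 3.11.15 with Biopython 1.88 on the RefSeq R64 reference.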

Additional observations from a re-analysis of the deposited data

Results flagged for a closer look

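The effect of rapamycin on the ratio of 2 copies differed between the tagged and the parental strain in RPL19 and RPP1, by a test of the difference itself (the interaction term in limma, adjusted over 61 pairs, n = 2 in each of the 4 groups). For RPL19 the log2 change of A over B with rapamycin was -0.22 in tagged cells and 0.08 in parental cells, a difference of -0.30 ± 0.04 (adjusted p = 0.00242). For RPP1 it was 0.36 in tagged cells and -0.08 in parental cells, a difference of 0.44 ± 0.08 (adjusted p = 0.008). The copies of RPL19 encode identical proteins.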

How the results depend on the processing

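On the strain comparison with rapamycin, 47 to 62 genes were called when libraries were left out in turn, and 54 without a filter on low values. Without rapamycin the range was 24 to 54, and 27 were called without a filter (25 higher, 2 lower). For rapamycin in the tagged strain it was 0 to 29; 0 were called without a filter, 0 under quantile normalization, 1 without a trend, 4 when scaled to protein-coding features, 4 with only the groups compared and 9 with voom. Ratios were called in 21 to 27, 19 to 22, 4 to 8, 0 to 2 and 3 to 5 pairs (strain with and without rapamycin, rapamycin in tagged and in parental cells, interaction). With the replicate number as a block 54, 42 and 2 genes and 26, 21, 8, 0 and 3 ratios were called. RPL3 with rapamycin (adjusted p = 0.0568, limma) and RPP0 (0.0533) and RPL13B (0.0668) without it then lost a call. Replicate differences of 2 groups correlated over all features with r from -0.134 to 0.146. This r leaves out a shift of a whole library, so it cannot show whether the numbers pair libraries. Without a filter, 6776 of 10799 features were higher and 205 lower for the strains with rapamycin. The counts were 3757 and 236 without it, and 4 and 2 for the drug in tagged cells. With libraries left out, the median log2 fold change of all features ran, in the same order, from 0.49 to 0.69, 0.26 to 0.45 and 0.23 to 0.43. Over the named genes and ratios the alternatives gave the same direction and side of the threshold 1364 times, lost a call 77 times, gained one 31 times and turned the sign 57 times; the cause was not tested.

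Signs turned mostly with scaling. Scaled to protein-coding features, log2 changes were, for the strains with rapamycin, RPL13A -0.33, RPL19B -0.041, RPL22B -0.00990 and RPL24B -0.31; without it, RPL13A -0.21, RPL19B -0.000640, RPL22B -0.062, RPL24B -0.16 and RPL33B -0.15; for rapamycin in tagged cells, RPL13A -0.085, RPL13B -0.13, RPL15A -0.15, RPL19B -0.18, RPL22A -0.14, RPL24A -0.13, RPL24B -0.33, RPL26A -0.067, RPL26B -0.22 and RPP1A -0.17; in parental cells, RPL13B -0.083; and for the interaction, RPL13A -0.12, RPL13B -0.046, RPL19B -0.040 and RPP1A -0.12. Under quantile normalization they were, in the same order, RPL13A -0.26, RPL19B -0.084 and RPL24B -0.31; RPL13A -0.14, RPL13B -0.021, RPL19B -0.12, RPL22B -0.042, RPL24B -0.18, RPL33B -0.22 and RPL36B -0.042; RPL13A -0.086, RPL19B -0.040, RPL24B -0.27, RPL26A -0.00346 and RPL26B -0.029; RPL13B -0.021; and RPL13A -0.11. With libraries left out, ranges crossed 0 for RPL19A (-0.23 to 0.035) with rapamycin; RPL13A (-0.096 to 0.17), RPL19A (-0.18 to 0.18), RPL24B (-0.025 to 0.21) and RPL33B (-0.012 to 0.21) without it; RPL19A (-0.19 to 0.082) and RPL24B (-0.11 to 0.15) for the drug in tagged cells; RPL13B (-0.14 to 0.18) and RPL5 (-0.00261 to 0.37) in parental cells; and RPL13A (-0.00625 to 0.26) and RPL19A (-0.28 to 0.085) in the interaction. With 2 libraries in each group, and median shifts of -0.27 to 0.26 (log2) between the replicates of a group, level changes of that size were hard to call; ratios were less exposed, since a factor shared by a library cancels.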
